A study of Rattus norvegicus with 8 samples.

Results

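Hes1, Nfix, Cux2, Etv5, Prdm8, Bcl6 and Ppard are 7 genes of transcription factors that were higher in postnatal than in embryonic rat retinal ganglion cells (RGCs), the neurons that send the axons of the optic nerve. They were picked by name, with their RNA at these stages already known, so their rise is what chose them and is given here as a description without a test. The 7 genes were found by their Ensembl gene IDs among 32623 IDs in the count files, and all 7 passed the filter on low counts.

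The study asked which genes change as RGCs lose their capacity to grow axons. RNA was sequenced from RGCs of Sprague Dawley rats at embryonic day 21 (E21), from embryos, and at postnatal day 11 (P11), from pups, with 4 libraries per stage. The labels name no treatment or transgene. Each library came from an independent litter, so it pools the retinas of several animals. The retinas were dissociated with papain and panned, first over a plate that removes macrophages and then over a plate coated with an antibody to Thy1 that holds RGCs. Libraries were depleted of ribosomal RNA before sequencing. The depth per library was 13899299 to 20116017 reads on genes, and levels are given in CPM, that is, reads of a gene relative to the TMM-normalised total. A difference was called where edgeR's quasi-likelihood test gave an adjusted p under 0.01 and the log2 fold change was beyond 1 in size. In bulk RNA, a change in the number of cells of a type and a change in the RNA of each cell cannot be told apart.

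The 8 libraries were first checked against markers of the cell types a panned retina can hold. The 11 markers of RGCs could not be paired with IDs in the table of symbols used here and were not checked. The summed level of 6 pan-neuronal markers was 4144 to 4233 CPM at E21 and 4130 to 4497 CPM at P11, but its members moved in opposite directions. Gap43 was called higher at E21, at 1711 ± 44.0 against 623 ± 30.8 CPM at P11. Nsf (204 ± 28.3 to 1390 ± 78.2 CPM) and Cplx1 (223 ± 11.3 to 488 ± 38.5 CPM) were called higher at P11. The other 3 were not called. The marker sums of several other cell types were higher at P11. The sum of 5 pericyte and mural cell markers was 4.21 to 6.22 CPM at E21 and 282 to 560 CPM at P11. Nearly all of it at P11 was Rgs5, at 232 ± 69.8 CPM, and Notch3, at 176 ± 46.8 CPM. Pln, at 0.403 ± 0.082 CPM (E21) and 0.286 ± 0.086 CPM (P11), had too few counts to be tested, and the other 4 were called higher at P11. The sum of 6 photoreceptor markers was 6.99 to 8.50 CPM at E21 and 29.9 to 49.4 CPM at P11. The 6 endothelial markers summed to 20.1 to 24.1 CPM at E21 and 29.5 to 42.8 CPM at P11. Notch4 made up most of that sum, at 21.4 ± 1.69 CPM (E21) and 23.2 ± 4.75 CPM (P11), while Flt1 rose from 0.152 ± 0.111 to 3.65 ± 1.25 CPM and Flt4 from 0.320 ± 0.243 to 7.21 ± 0.640 CPM. The sum of 4 Müller glia and astrocyte markers was lower at P11, at 1.91 to 3.49 CPM against 24.6 to 33.7 CPM. Most of it at E21 was Gja1, which fell from 26.8 ± 4.15 to 0.885 ± 0.477 CPM and was called. S100b went the other way, from 0.029 ± 0.035 CPM (2 counts in all) to 1.64 ± 0.624 CPM, and was called higher at P11 (adjusted p = 3.00e-07, edgeR). Gfap, which defines astrocytes, was at or below 3 counts in every library. The sum of 4 microglia markers was at most 1.21 CPM in any library. Chi-square per degree of freedom between libraries of the same stage was 2.86 to 8.20. It was highest in pairs with E21 replicate 1 or P11 replicate 4, and leaving out either of these left all 7 genes called.

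The 7 genes belong to different families of DNA-binding proteins. Hes1 is a basic helix-loop-helix repressor induced by Notch receptors, which keeps progenitors from becoming neurons, is expressed in Müller glia and represses its own gene. Nfix is a nuclear factor I protein, a family used in late retinal progenitors and glia. Cux2 is a CUT homeodomain protein known for the dendrites and synapses of upper-layer cortical neurons. Etv5 is an ETS factor of the PEA3 group, whose genes are switched on by fibroblast growth factor (FGF) and ERK signalling. Prdm8 is a PR domain zinc finger repressor that retinal bipolar and amacrine cells need. Bcl6 is a BTB zinc finger repressor, best known from germinal centre B cells, that also represses Notch target genes in cortical progenitors. Ppard is a nuclear receptor for fatty acids that binds DNA as a dimer with retinoid X receptors.

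Promoters are shown because binding of Notch effectors, of Hes1 itself and of signal-dependent factors near the start is how several of these genes are known to be read. RefSeq promoters of build GRCr8 were at hand for 5 of the 7 genes, Hes1, Nfix, Cux2, Etv5 and Bcl6, and not for Prdm8 and Ppard. The 250 bases before the start were searched on both strands for TGGGAA (the core bound by RBPJ, the DNA-binding partner of Notch), for CACNAG (the N-box of Hes repressors) and for the CCAAT box. They were also searched for TGACG (part of a cAMP response element), for the CUT homeodomain site ATCGAT and for the ETS site CCGGAA, and all 33469 promoters of that table were searched in the same way. Bases within a transcript of the same gene were left out of what is shown for Hes1, Bcl6 and Etv5. For Cux2 fewer than 30 bases lay before the gene, so 30 bases about the match are shown, and these lie within the gene. The sequences run 5′ to 3′ on the gene's strand, with some of the matches in capitals.
Hes1, chr11:84213046-84213295, minus strand, TGGGAA and CACNAG in either orientation in capitals: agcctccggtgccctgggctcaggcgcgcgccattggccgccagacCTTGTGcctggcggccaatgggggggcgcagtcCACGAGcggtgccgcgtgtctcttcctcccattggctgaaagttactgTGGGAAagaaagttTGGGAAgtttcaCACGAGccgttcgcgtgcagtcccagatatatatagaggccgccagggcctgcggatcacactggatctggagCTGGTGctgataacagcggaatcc
Bcl6, chr11:90358503-90358752, plus strand, TGACG in either orientation in capitals: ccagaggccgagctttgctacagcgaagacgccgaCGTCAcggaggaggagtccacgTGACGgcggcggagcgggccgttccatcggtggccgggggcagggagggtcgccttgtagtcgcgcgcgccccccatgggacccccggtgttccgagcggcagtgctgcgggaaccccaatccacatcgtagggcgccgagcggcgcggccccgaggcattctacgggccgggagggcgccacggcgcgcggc
Etv5, chr11:92113013-92113170, plus strand, CCAAT in capitals: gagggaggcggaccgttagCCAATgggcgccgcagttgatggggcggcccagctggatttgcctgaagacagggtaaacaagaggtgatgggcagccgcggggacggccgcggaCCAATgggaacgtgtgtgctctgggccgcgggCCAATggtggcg
Cux2, chr12:40179225-40179254, plus strand, ATCGAT in capitals: cgccccctgcgcATCGATccgcgcgcgcgg
The Hes1 promoter held 2 RBPJ cores, which start 123 and 109 bases before the start, and 4 N-boxes. Of all promoters, 22.1% held at least 1 RBPJ core and 2.71% at least 2, and 37.2% held at least 1 N-box and 0.197% at least 4. The Bcl6 promoter held 2 of the TGACG letters, in opposite orientation, against at least 2 in 3.98% of promoters. The Etv5 promoter held 3 CCAAT boxes, as did that of Hes1, where they are not in capitals, against at least 3 in 2.52% of promoters. An RBPJ core in the Etv5 promoter overlaps the second of these boxes by 1 base. The Cux2 promoter held 1 ATCGAT, which 0.750% of promoters held. CCGGAA was in 12.6% of all promoters and in 0 of these 5. Promoters of the 5 genes were 61.6% to 86.8% G and C, with Hes1 lowest and Nfix highest, against a median of 51.2%. These matches describe the letters in the window and were not measured as bound sites.

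In these 8 libraries all 7 genes were called higher at P11, while 16.5% of the 14043 genes tested were. None was called higher at E21, while 8.16% of genes tested were. The P11 libraries were all above the E21 libraries for each of the 7, as for 35.9% of genes tested. Since the genes were chosen for this contrast, nothing is read from these counts. The log2 fold changes ran from 1.11 for Cux2 to 7.36 for Nfix, and the median of all genes tested was -0.00. Hes1 and Nfix had fewer than 10 counts in every E21 library, and Bcl6 had 6 counts in E21 replicate 4. Each of these genes therefore passed the filter only with its P11 libraries.

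**Figure D1:**
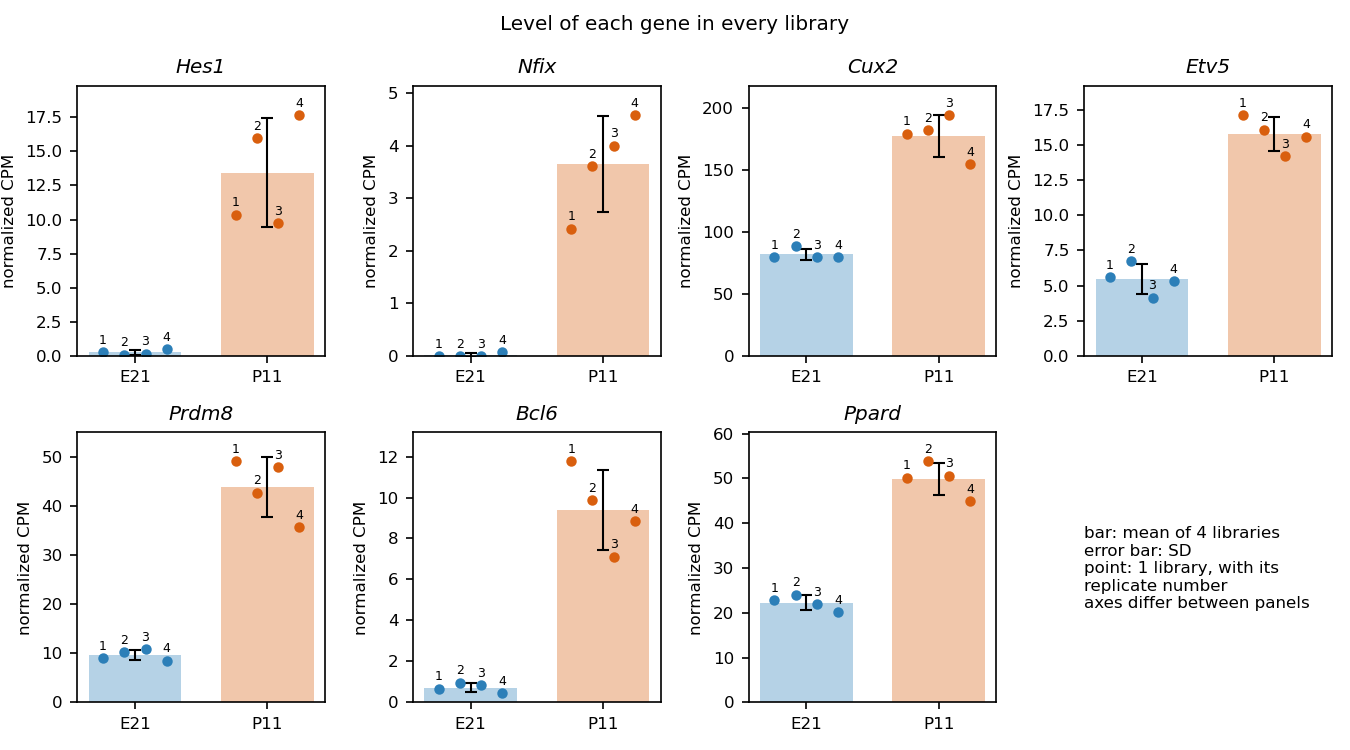
Level of each of the 7 genes in CPM (y axis, starting at 0 and different in each panel) in the 4 E21 libraries (blue) and the 4 P11 libraries (orange), with points for single libraries numbered by replicate, bars for means and error bars for SD. Hes1, Nfix and Bcl6 are near 0 at E21, while Cux2 lies between 79.3 and 88.7 CPM at E21 and between 154 and 194 CPM at P11.

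Hes1 (ENSRNOG00000001720) went from the edge of detection to a moderate level. Its level was 0.268, 0.101, 0.157 and 0.512 CPM in E21 replicates 1 to 4, from 4, 2, 3 and 7 counts. It was 10.3, 15.98, 9.71 and 17.7 CPM in P11 replicates 1 to 4, from 154, 270, 153 and 324 counts. The P11 libraries fall into a lower pair, replicates 1 and 3, and a higher pair, replicates 2 and 4, and the lowest of them is 19.0 times the highest E21 library. Mean levels were 0.260 ± 0.182 CPM at E21 and 13.4 ± 3.99 CPM at P11 (SD, n = 4 each), a log2 fold change of 5.78 (standard error 0.36). Because 16 reads carry the E21 level, the ratio of summed counts, 57.6, has an exact 95% interval of 35.3 to 101 for counting error alone.

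Of 39 Notch pathway genes, which feed into Hes1, 9 were paired with an ID and tested. Of these, 2 were called higher at P11 (22.2%, against 16.5% of all genes tested), 1 was called higher at E21 (11.1%, against 8.16%), and the median log2 fold change was -0.21. Notch3, a receptor, rose from 2.12 ± 0.23 to 176 ± 46.8 CPM (log2 fold change 6.39, standard error 0.32, adjusted p = 1.45e-06, edgeR quasi-likelihood test). Notch3 is also 1 of the 5 pericyte and mural markers. The receptor Notch4 did not pass the test, with 21.4 ± 1.69 CPM (E21) and 23.2 ± 4.75 CPM (P11, adjusted p = 0.402, edgeR). Psen2, a catalytic subunit of the gamma-secretase that cuts Notch, rose from 30.9 ± 2.42 to 66.4 ± 4.38 CPM (log2 fold change 1.10, standard error 0.06, adjusted p = 9.70e-11, edgeR). Its call was lost when the fold change itself was tested against a log2 of 1 with edgeR's glmTreat. Lfng, the Fringe enzyme that modifies Notch receptors, fell from 2.76 ± 0.64 to 0.746 ± 0.236 CPM (log2 fold change -1.86, standard error 0.26, adjusted p = 6.60e-06, edgeR). The coactivators of the Notch transcription complex were a little lower at P11, with log2 fold changes of -0.74 for Maml1 (adjusted p = 3.78e-08, edgeR) and -0.42 for Ep300 (adjusted p = 4.21e-06, edgeR), both short of the fold threshold. Other Hes and Hey genes and Rbpj could not be paired with an ID and were not analysed here.

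The order of Hes1 over the P11 libraries, replicates 4, 2, 1 and 3 from high to low, is also that of the summed pericyte and mural markers. That sum, nearly all of it Rgs5 and Notch3, was 378, 467, 282 and 560 CPM in P11 replicates 1 to 4. Hes1 equalled 2.74%, 3.43%, 3.45% and 3.15% of it in those replicates, while the sum itself varied 1.99-fold and Hes1 1.82-fold. At E21 the share was 2.41% to 8.24%, on 2 to 7 counts of Hes1. The endothelial sum had the same order of replicates, which is that of its largest member, Notch4, while Flt1 had the order 4, 2, 3 and 1 and Flt4 the order 3, 2, 4 and 1. Against the summed pericyte and mural markers, Nfix equalled 0.641% to 1.42% and Bcl6 1.58% to 3.11% over the P11 libraries, wider ranges than that of Hes1. The part of vascular cells in the Hes1, Nfix and Bcl6 values was not tested. Sox9, a marker of Müller glia that also express Hes1, had 0.623 ± 0.115 CPM at E21 and 0.354 ± 0.092 CPM at P11, too few counts to be tested. Other markers of that list moved in opposite directions. S100b rose from 0.029 ± 0.035 to 1.64 ± 0.624 CPM, and Gja1 fell from 26.8 ± 4.15 to 0.885 ± 0.477 CPM. The part of glia in the Hes1 values was not tested either.

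Nfix (ENSRNOG00000002983) had 0 counts in E21 replicates 1 to 3 and 1 count in replicate 4. At P11 it had 36, 61, 63 and 84 counts in replicates 1 to 4, which are 2.42, 3.61, 3.999 and 4.58 CPM. Each P11 library thus held many more reads than all E21 libraries together. The P11 mean was 3.65 ± 0.914 CPM (SD, n = 4), and the ratio of summed counts was 250 with an exact 95% interval of 44.4 to 9900 for counting error alone. The log2 fold change fitted with a prior count was 7.36, and 8.97 without E21 replicate 4, the only E21 library with a read. Other genes of the nuclear factor I family could not be paired and were not analysed here.

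Cux2 (ENSRNOG00000001259) was well expressed at both stages. E21 replicates 1 to 4 were at 79.8, 88.7, 79.3 and 79.7 CPM, and P11 replicates 1 to 4 at 179, 182, 194 and 154 CPM. The E21 libraries were tight apart from replicate 2, and the lowest P11 library, replicate 4, was 1.74 times the highest E21 library. Means were 81.9 ± 4.54 and 177 ± 16.7 CPM (SD, n = 4 each), 2.16-fold on the fit (log2 fold change 1.11, standard error 0.06). Cux1, the other CUT gene of this pair, went the other way, from 228 ± 13.5 to 191 ± 9.62 CPM, by a small amount short of the fold threshold (log2 fold change -0.25, standard error 0.05, adjusted p = 1.71e-04, edgeR).

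Prdm8 (ENSRNOG00000002004) was detected at both stages with clear separation. It was at 9.04, 10.2, 10.9 and 8.48 CPM in E21 replicates 1 to 4 and at 49.1, 42.8, 48.0 and 35.8 CPM in P11 replicates 1 to 4. The lowest P11 library, again replicate 4, was 3.28 times the highest E21 library. Means were 9.67 ± 1.11 and 43.9 ± 6.09 CPM (SD, n = 4 each), a log2 fold change of 2.17 (standard error 0.11). Its order over the P11 libraries, replicates 1, 3, 2 and 4, is that of the summed bipolar markers, 87.3 to 94.5 CPM, and of the summed amacrine markers, 13.3 to 20.97 CPM. At E21 those sums were 41.4 to 49.0 and 6.29 to 7.30 CPM, and the part of these cells in the Prdm8 values was not tested. The amacrine sum has 2 members that went opposite ways, and its rise and order at P11 are those of Gad1, which rose from 0.856 ± 0.280 to 13.8 ± 3.40 CPM. Prox1 was lower at P11, at 5.97 ± 0.518 against 2.63 ± 0.296 CPM, with P11 replicate 4 highest. Of the bipolar markers, Grm6, the glutamate receptor of ON bipolar cells, stood at 5.97 ± 0.59 CPM (E21) and 3.37 ± 0.449 CPM (P11), while Prkca, which other neurons also express, made up nearly all of the P11 sum at 87.5 ± 3.23 CPM. Another PRDM gene, Prdm15, was lower at P11, at 26.9 ± 0.507 against 18.4 ± 2.14 CPM, short of the fold threshold (log2 fold change -0.55, adjusted p = 6.04e-06, edgeR).

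Bcl6 (ENSRNOG00000001843) was below 1 CPM in each E21 library. E21 replicates 1 to 4 were at 0.669, 0.963, 0.840 and 0.439 CPM, and P11 replicates 1 to 4 at 11.8, 9.88, 7.11 and 8.84 CPM. The P11 libraries spread 1.65-fold, with replicate 1 highest and replicate 3 lowest, and replicate 3 was 7.38 times the highest E21 library. Means were 0.728 ± 0.227 and 9.40 ± 1.95 CPM (SD, n = 4 each), a log2 fold change of 3.63 (standard error 0.22). Its replicate order, 1, 2, 4 and 3, was shared with Etv5 and with none of the 9 marker sums.

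Of 16 Bcl6 corepressors and genes that Bcl6 represses in other cells, 5 were tested, with 2 called higher at P11 by edgeR (16.5% of all genes tested were), 0 called higher at E21 (8.16% of all genes tested were) and a median log2 fold change of -0.03. DESeq2 also called 2 and 0, and 2 of the 5 were lower at P11 at an unadjusted p under 0.05. Prdm1, which encodes Blimp1 and which Bcl6 represses in B cells, had 2, 3, 0 and 0 counts in E21 replicates 1 to 4 and 41, 54, 58 and 81 in P11 replicates 1 to 4. The ratio of its summed counts was 47.9 with an exact 95% interval of 20.2 to 149 for counting error alone (adjusted p = 4.44e-09, edgeR). Blimp1 is also known from newborn photoreceptors, whose markers were higher at P11 (4 of 6 tested were called, 66.7%, against 16.5% of all genes tested). At P11, Prdm1 was highest in replicate 4, at 4.42 CPM, and the photoreceptor sum in replicate 3, at 49.4 CPM. The part of photoreceptors in the Prdm1 values was not tested. Cdkn1a, the cell cycle inhibitor p21, rose from 4.66 ± 1.29 to 24.8 ± 3.63 CPM (log2 fold change 2.38, standard error 0.16, adjusted p = 4.05e-08, edgeR). Socs1 did not pass the test, at 7.72 ± 0.895 and 7.56 ± 1.70 CPM (adjusted p = 0.867, edgeR). The corepressor Hdac2 had 183 ± 7.23 CPM at E21 and 104 ± 4.68 CPM at P11, short of the fold threshold (log2 fold change -0.81, adjusted p = 4.35e-11, edgeR). Among other BTB zinc finger genes, 2 of 7 were called, both lower at P11 (28.6%, against 8.16% of all genes tested), too few genes to read a share from. Zbtb12 fell from 191 ± 2.81 to 19.2 ± 2.57 CPM (log2 fold change -3.30, standard error 0.07, adjusted p = 1.49e-15, edgeR) and Zbtb39 from 64.8 ± 6.65 to 25.3 ± 1.38 CPM (log2 fold change -1.36, standard error 0.07, adjusted p = 2.30e-11, edgeR).

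Etv5 (ENSRNOG00000001785) was the member with the least contrast between stages after Cux2 and Ppard. It was at 5.62, 6.74, 4.15 and 5.34 CPM in E21 replicates 1 to 4 and at 17.1, 16.1, 14.2 and 15.6 CPM in P11 replicates 1 to 4. The P11 libraries were close together, within 1.21-fold, and the lowest was 2.11 times the highest E21 library. Means were 5.46 ± 1.07 and 15.8 ± 1.21 CPM (SD, n = 4 each), a log2 fold change of 1.53 (standard error 0.13). Of 17 FGF and ERK feedback genes, 5 were tested, with 1 called higher at P11 by edgeR (16.5% of all genes tested were), 0 called higher at E21 (8.16% of all genes tested were) and a median log2 fold change of -0.34. DESeq2 also called 1 and 0, and 3 of the 5 were lower at P11 at an unadjusted p under 0.05. Egr2, an immediate early gene, rose from 0.557 ± 0.227 to 3.32 ± 1.65 CPM (log2 fold change 2.59, standard error 0.46, adjusted p = 2.63e-04, edgeR). Dusp1, a phosphatase that is also an immediate early gene, was lower at P11, at 68.3 ± 16.4 against 118 ± 6.24 CPM, short of the fold threshold (log2 fold change -0.78, adjusted p = 3.41e-03, edgeR). Of the ETS relatives, Elk3 rose from 0.814 ± 0.218 to 5.995 ± 1.33 CPM (log2 fold change 2.91, standard error 0.23, adjusted p = 4.22e-09, edgeR), with P11 replicate 4 highest. Ets2 did not pass the test, at 22.7 ± 1.65 and 23.0 ± 0.768 CPM (adjusted p = 0.805, edgeR).

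Ppard (ENSRNOG00000000503) was expressed at both stages with a small spread. It was at 22.9, 24.02, 21.9 and 20.2 CPM in E21 replicates 1 to 4 and at 50.2, 53.8, 50.6 and 45.0 CPM in P11 replicates 1 to 4. Replicate 4 was the lowest library of both stages, and the P11 one was 1.87 times the highest E21 library. Means were 22.3 ± 1.62 and 49.9 ± 3.64 CPM (SD, n = 4 each), 2.23-fold on the fit (log2 fold change 1.16, standard error 0.07). Its dimer partner Rxrb was at 94.1 ± 2.52 and 103 ± 6.69 CPM, with overlapping stages, and did not pass the test (adjusted p = 0.0223, edgeR). Of 28 PPAR partners and targets, 5 were tested and 0 were called in either direction by edgeR or DESeq2, with a median log2 fold change of -0.13. At an unadjusted p under 0.05 in edgeR, 2 of the 5 were higher and 3 lower at P11. The coregulator Nrip1 and the target Ehhadh passed the p threshold but not the fold threshold, with log2 fold changes of 0.17 and -0.98. Ehhadh, an enzyme of peroxisomal fatty acid oxidation, had 6.45 ± 2.83 CPM at E21 and 3.32 ± 0.559 CPM at P11 (adjusted p = 6.28e-03, edgeR), with E21 replicate 2 highest at 10.5 CPM. Its log2 fold change was -0.61 and not called without E21 replicate 2, and it was called lower at P11 at -1.13 without E21 replicate 3 and at -1.11 without E21 replicate 4. Among other nuclear receptors, Nr0b1 rose from 0.279 ± 0.070 to 1.06 ± 0.331 CPM (log2 fold change 1.90, standard error 0.36, adjusted p = 1.25e-04, edgeR), a call lost with glmTreat.

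**Figure D2:**
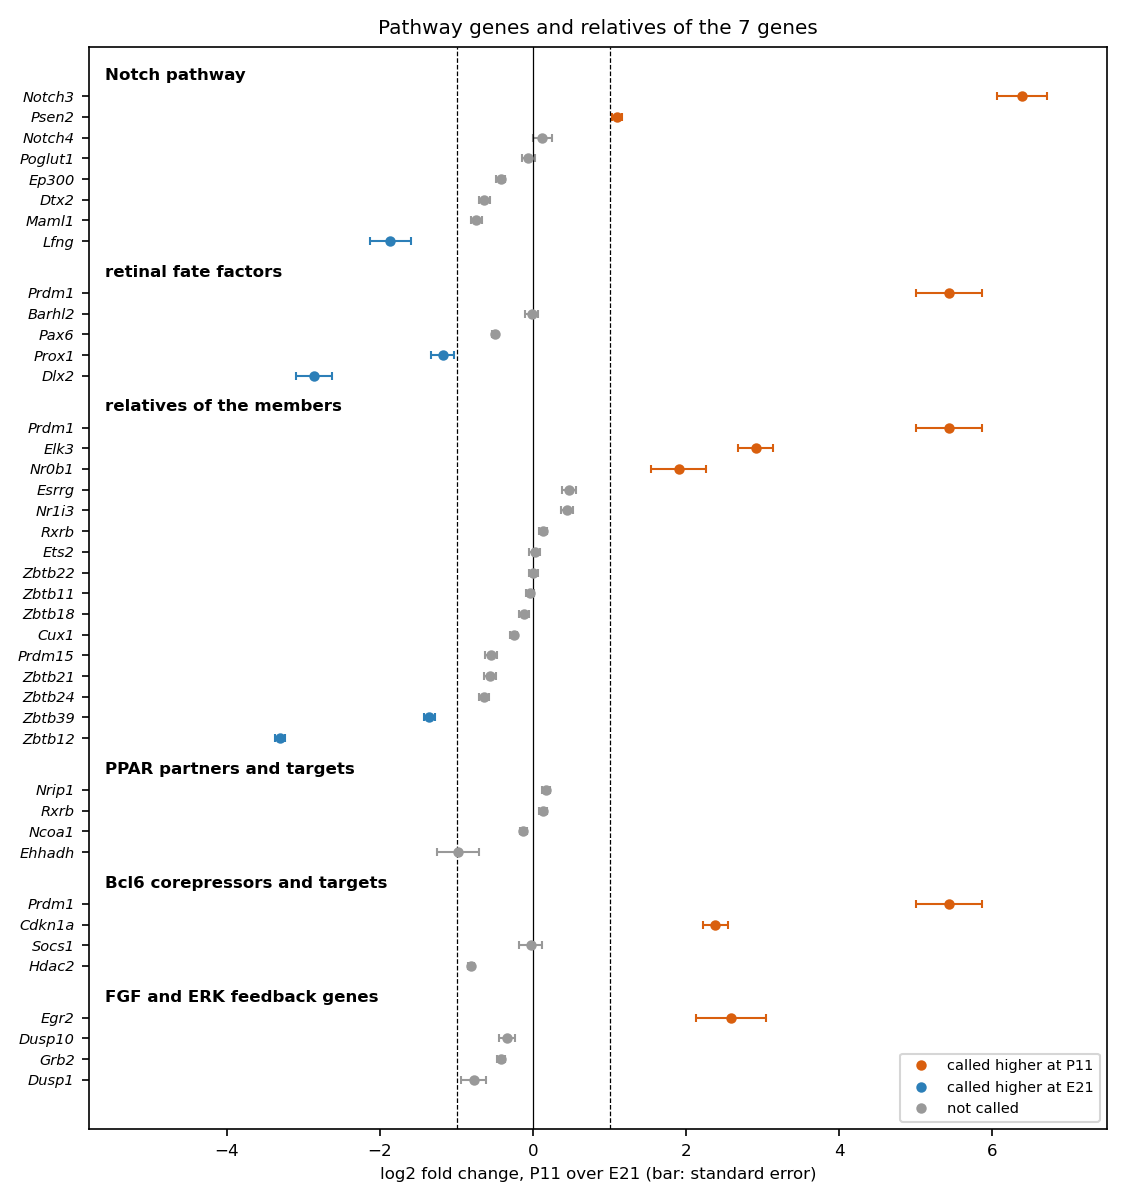
Log2 fold change of P11 over E21 (x axis) with its standard error for tested genes of 6 lists around the 7 genes, orange where called higher at P11, blue where called higher at E21 and grey where not called, with dashed lines at -1 and 1. Genes in several lists are drawn in each, and Notch3 (6.39) and Prdm1 (5.44) lie farthest right while Zbtb12 (-3.30) lies farthest left.

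Set among all genes, the 7 range from low to high expression. Nfix, Hes1 and Bcl6 have the larger fold changes and few reads at E21, while Cux2 and Ppard have many reads and lie just beyond the fold threshold. When the fold change was tested against a log2 of 1 with glmTreat, the call remained for 5 of the 7 and was lost for Cux2 and Ppard. Under a filter of at least 10 counts in each library, 4 of the 7 were left to test, without Hes1, Nfix and Bcl6, and all 4 were called.

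**Figure D3:**
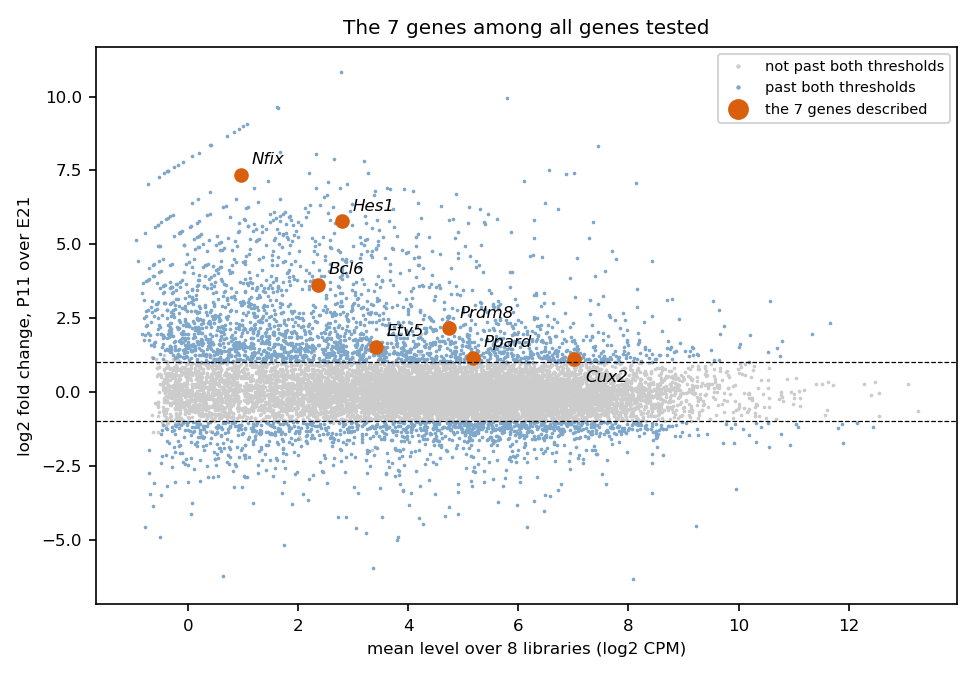
Log2 fold change of P11 over E21 (y axis) against the mean level over the 8 libraries in log2 CPM (x axis) for the 14043 genes tested, pale blue where past both thresholds, with the 7 genes in orange and dashed lines at -1 and 1. Cux2 (1.11) and Ppard (1.16) sit just above the upper line at higher levels, and the position of Nfix (7.36) depends on the prior count because its E21 libraries hold 1 read.

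The P11 litters varied more for some of the 7 genes than for others. The coefficient of variation over the 4 P11 libraries was 29.7% for Hes1, 25.0% for Nfix and 20.7% for Bcl6, where counting error alone gives 6.66%, 12.8% and 8.06%. It was 13.9% for Prdm8, 9.41% for Cux2 and 7.30% for Ppard, where counting error alone gives 3.74%, 1.85% and 3.49%. Etv5, at 7.70% against 6.21%, varied about as much as counting its reads would. P11 replicate 4 was the highest library for Hes1 and Nfix and the lowest for Cux2, Prdm8 and Ppard, and it was also the lowest for the pan-neuronal sum and the highest for the pericyte and mural sum. Without P11 replicate 4 the log2 fold change was 5.62 for Hes1, 7.23 for Nfix, 1.18 for Cux2, 2.26 for Prdm8 and 1.21 for Ppard, so the first 2 were smaller and the last 3 larger than with it. The order of Cux2, replicates 3, 2, 1 and 4, was also that of the Müller glia and astrocyte sum, and the order of Nfix, replicates 4, 3, 2 and 1, that of the sum of 2 oligodendrocyte markers, which was 25.8 to 32.1 CPM at E21 and 13.8 to 15.1 CPM at P11. The order of Ppard was that of no marker sum. With 4 libraries, orders that match carry little information. Whether the make-up of P11 replicate 4 accounts for these differences was not tested.

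**Figure D4:**
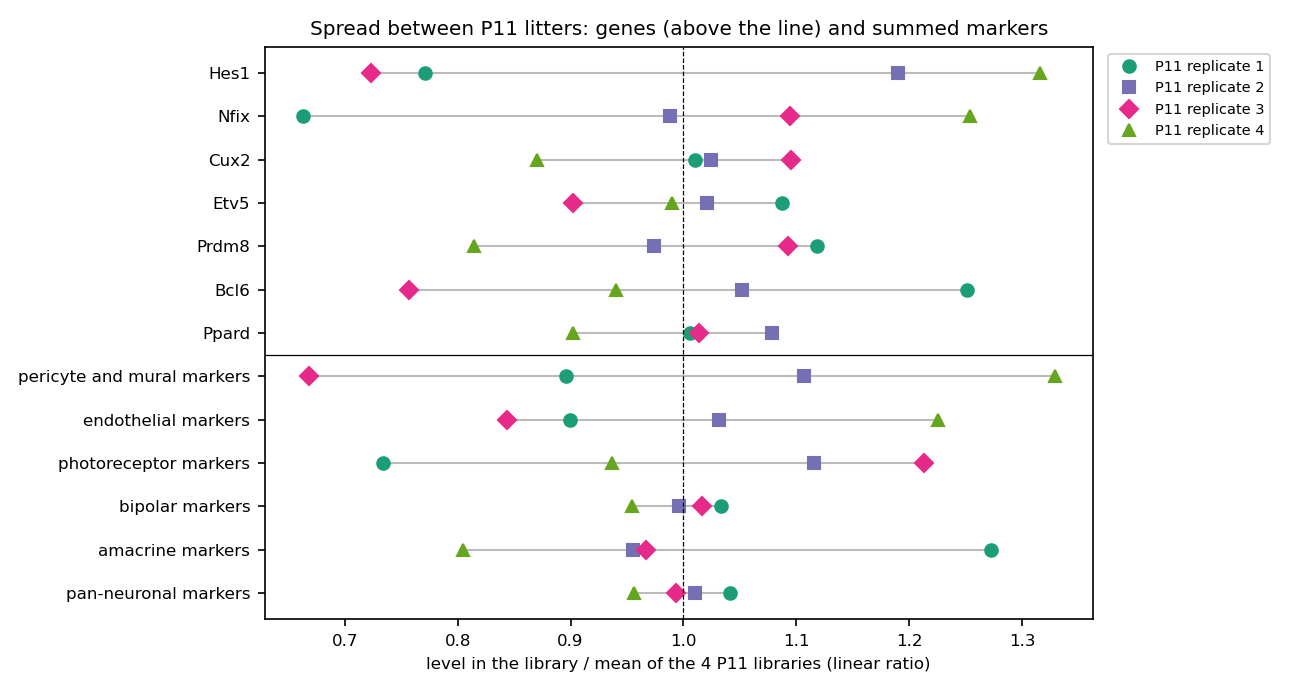
Level in each P11 library divided by the mean of the 4 P11 libraries (x axis, linear) for the 7 genes (above the line) and 6 sums of cell type markers (below it), with 1 symbol per replicate. For Hes1, as for the pericyte and mural sum, replicates 4 and 2 lie to the right of 1 and replicates 1 and 3 to the left, while for Cux2, Prdm8 and Ppard replicate 4 lies farthest left.

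Among themselves, the profiles of Cux2 and Ppard over the 8 libraries were the closest pair, with a root mean square difference of 0.07 on the log2 scale after each profile was centred on its mean. Since that mean covers both stages, these distances depend largely on how alike the log2 fold changes are, here 1.11 and 1.16. They do not measure shared regulation. Hes1 and Nfix differed by 0.41, the smallest distance of either to another of the 7. The other genes with the most similar profiles were sought among the 1772 other genes with a symbol that were tested, and they are similar by choice. Nearest to Cux2 were Fmnl1, Bdh1 and Cplx1, at 0.06 to 0.08, and nearest to Ppard were Cplx1, Tspan7 and Fmnl1, at 0.06. Cplx1, the complexin of synaptic vesicle release, is near both and has a similar log2 fold change, 1.13. Nearest to Prdm8 were Lrrk2, Prrt1 and Tmem163, at 0.15 to 0.16, and nearest to Etv5 were Cabp1, Deptor and Grb10, at 0.11 to 0.15. Nearest to Bcl6 were Lgals3bp, Hlf and Atp1b1, at 0.25 to 0.31. For Hes1 the nearest were Adora2a, Col1a1 and Sod3, all at 0.44, and Nfix was nearest to Hlx at 0.30, Sod3 at 0.37 and Pdc at 0.37. Hes1 had 16 reads and Nfix 1 read in all at E21, so counting error adds to their distances. Col1a1, which encodes a chain of fibrillar collagen made by connective tissue cells, had 1.54 ± 0.535 CPM at E21 and 56.1 ± 10.2 CPM at P11.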

How the data were processed

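RNA of immunopanned RGCs was sequenced from 4 E21 and 4 P11 litters. The authors used cutadapt 1.16 and PRINSEQ for trimming and filtering, STAR 2.5.3a for alignment to Rnor_6.0 and HTSeq 0.6.1 for counting. The deposited values are raw counts per Ensembl gene ID, 1 file per library, without normalization. The annotation release and strand setting are not given in the sources used here, so reads of overlapping or antisense genes cannot be told apart. Symbols came from the ID and symbol columns of the study's supplementary gene table, held in part. They named 1998 IDs, of which 1779 were tested. The fold changes, p-values and normalized counts of that table were not used.

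Counts were analysed with edgeR 4.0.16 in R 4.3.3 (filterByExpr, TMM, robust quasi-likelihood test on all 8 libraries, Benjamini-Hochberg over 14043 genes). Calls needed adjusted p under 0.01 and a log2 fold change over 1 in size, as in the study's methods. The standard error is the log2 fold change over the square root of F. Profiles used log2 CPM with a prior count of 2. In each library, 3 counts correspond to 0.152 to 0.219 CPM. Intervals of count ratios are exact binomial and cover counting error only, as do counting coefficients of variation. Litters are the replicates.

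The 7 genes, the gene lists and the marker lists were chosen with earlier results of these data known, so no list was tested as a set. Genes named were the 7, the 3 nearest profiles of each, listed genes that were called (up to 6 a list) and partners or relatives of the 7, plus markers. Alternatives were DESeq2 1.42.0, size factor, upper-quartile and library-size scaling, no filter, at least 10 counts in every library, glmTreat, a replicate block and leaving out each library. On simulated counts with 200 of 14043 genes changed, edgeR called 198 and DESeq2 200, and neither called an unchanged gene. Promoters are RefSeq's (GRCr8), a different build from that of the counts, and were matched by symbol. The results of some listed genes are not reported here, though the counts of each list include them.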

Additional observations from a re-analysis of the deposited data

Results flagged for a closer look

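Of 31 groups of 4 libraries examined over the 7 genes and the marker sums, 1 held a library set far apart from the others by Dixon's criterion, which chance does in about 1 in 20 groups. Cux2 was at 88.7 CPM in E21 replicate 2, against 79.3 to 79.8 CPM in the other E21 libraries, a gap of 0.9501 of the group's range. That library was still below the lowest P11 library, at 154 CPM. Nfix at E21 was not flagged, though its gap is its whole range, since its 1 read lies in replicate 4.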

How the results depend on the processing

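The 7 genes stayed higher at P11 in every alternative in which they were tested. With at least 10 counts in every library, 1523 genes were called higher at P11 (2316 otherwise), 4 of the 7 genes, 13 listed genes (21 otherwise) and 7 listed genes higher at P11 (13 otherwise), since fewer genes were tested. With glmTreat, 668 genes were called higher at E21 (1146 otherwise), as its test is stricter by construction. Leaving out each library in turn gave 2337 to 2443 genes higher at P11, 1109 to 1225 higher at E21, 7 of the 7 genes, 21 to 24 listed genes and 13 listed genes higher at P11. The replicate numbers did not pair the libraries (correlations of deviations -0.03 to 0.08), and with the replicate block 2316 genes were called higher at P11, 1147 at E21 and 7 of the 7. Of the log2 fold changes of the 7 genes, that of Nfix moved most when a library was left out, from 7.36 to 8.97 without E21 replicate 4. Scaling moved the median of all genes by at most 0.05 on the log2 scale. Among the other listed genes, 1300 values kept their direction and side of the threshold, 3 lost and 6 gained a call, and 40 values of 9 genes changed sign. These 9 genes were close to no difference and were called in 0 fits. Their log2 fold changes with changed sign were 0.0312 for Barhl2, 0.0189 for Socs1, 0.0410 for Tead3, 0.0071 for Zbtb11 and 0.0480 for Zbtb22 with upper-quartile scaling, and 0.0373, 0.0261, 0.0470, 0.0132 and 0.0535 for the same genes with library-size scaling. They were 0.0046 for Tead3 and 0.0122 for Zbtb22 with DESeq2 size factors, 0.0062 for Zbtb22 with DESeq2 and 0.0004 for it without a filter. With at least 10 counts in every library they were 0.0203 for Barhl2, 0.0075 for Socs1, 0.0295 for Tead3 and 0.0371 for Zbtb22. With single libraries left out they ran from -0.1121 to 0.0329 for Barhl2, -0.0336 to 0.0582 for Ets2, -0.1763 to 0.2178 for Nfe2l2, -0.0155 to 0.2342 for Notch4, -0.1336 to 0.1039 for Socs1, -0.3959 to 0.2163 for Tcf15, -0.1112 to 0.0635 for Tead3 and -0.0463 to 0.0400 for Zbtb22. Depth limits Hes1, Nfix, Bcl6 and Prdm1 at E21, where 3 counts are 0.152 to 0.219 CPM. Most IDs had no symbol here, so each list is seen in part.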

Other observations

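Transcription factor genes beyond the 7 moved in both directions. Of 81 others with a symbol, 66 were tested, with 10 called higher at P11 (15.2%, against 16.5% of all genes tested), 7 called higher at E21 (10.6%, against 8.16% of all genes tested) and a median log2 fold change of -0.18. These shares describe the list and were not tested against the other genes. Clock, a core gene of the circadian oscillator, rose from 36.0 ± 0.887 to 126 ± 9.86 CPM (log2 fold change 1.81, standard error 0.06, adjusted p = 5.06e-14, edgeR), and Hlf, a PAR bZIP factor with circadian rhythms in other tissues, rose from 3.54 ± 0.718 to 43.9 ± 9.12 CPM (log2 fold change 3.61, standard error 0.20, adjusted p = 9.63e-08, edgeR). Camta2, a calmodulin-binding activator, rose from 69.3 ± 2.76 to 177 ± 9.81 CPM (log2 fold change 1.35, standard error 0.05, adjusted p = 2.22e-13, edgeR). Atf3, a stress-induced gene, rose from 0.785 ± 0.235 to 10.8 ± 4.39 CPM, and its P11 libraries ranged from 7.36 to 16.7 CPM with replicate 4 highest (log2 fold change 3.73, standard error 0.34, adjusted p = 1.46e-06, edgeR).

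Other factors rose from almost no reads, as Nfix did. Hlx, a homeobox gene known from mesenchyme, had 0 counts in the E21 libraries and 36, 66, 42 and 94 in P11 replicates 1 to 4, at least 16.1-fold higher against 3 counts per library (adjusted p = 1.28e-07, edgeR). Prrx1, a homeobox gene of mesenchymal cells, had 3, 1, 0 and 2 counts at E21 and 58, 92, 50 and 154 at P11, a ratio of 60.4 with an exact 95% interval of 27.5 to 166 for counting error alone (adjusted p = 5.94e-07, edgeR). In both, as in Hes1, P11 replicates 4 and 2 were above replicates 1 and 3. Prrx1 had the full order of Hes1, while Hlx had replicate 3 above replicate 1. The part of other cell types was not tested.

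Factors that were higher at E21 included Gfi1, which fell from 54.5 ± 10.1 to 5.19 ± 0.764 CPM (log2 fold change -3.37, standard error 0.16, adjusted p = 7.15e-09, edgeR), and Runx1, which fell from 73.9 ± 8.46 to 8.84 ± 1.82 CPM (log2 fold change -3.06, standard error 0.13, adjusted p = 6.93e-10, edgeR). Among retinal fate factors, 6 of 33 were tested, with 1 called higher at P11 (Prdm1, where 16.5% of all genes tested were) and 2 called higher at E21 (where 8.16% of all genes tested were). Dlx2, a homeobox gene of developing RGCs and interneurons, fell from 3.49 ± 0.276 to 0.473 ± 0.129 CPM (log2 fold change -2.87, standard error 0.24, adjusted p = 7.99e-09, edgeR). Prox1, which marks horizontal and amacrine cells, fell from 5.97 ± 0.518 to 2.63 ± 0.296 CPM (log2 fold change -1.18, standard error 0.15, adjusted p = 1.60e-06, edgeR), a call lost with glmTreat. Pax6, a homeobox gene of RGCs and amacrine cells, had 432 ± 8.02 CPM at E21 and 305 ± 6.09 CPM at P11, short of the fold threshold (log2 fold change -0.50, adjusted p = 1.43e-09, edgeR).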
